A study of Homo sapiens with 12 samples.

Results

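The 10 genes described here, HK2, GPI, PFKP, ALDOA, ALDOC, TPI1, PGK1, PGAM1, ENO1 and LDHA, encode enzymes of glycolysis. They were taken by gene symbol from a table of 58216 genes, and 10 of 10 had enough counts to be among the 18035 genes tested. Glycolysis splits glucose into pyruvate in the cytosol. An early phase spends ATP to phosphorylate the sugar and cleave it, and a later phase returns ATP and NADH. Lactate dehydrogenase then turns pyruvate into lactate and restores NAD+. Tumour cells often run this pathway fast even with oxygen present, and most of its enzymes are known targets of the hypoxia-inducible transcription factors.

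RNA sequencing gave transcript counts for HCCC9810 and RBE, established human cell lines from intrahepatic cholangiocarcinoma, which arises in bile ducts within the liver. Each line was cultured for 24 h without drug or with 5 µM anlotinib, an oral inhibitor of receptor tyrosine kinases of the VEGF, FGF and PDGF families. That gave 4 groups of 3 libraries, which the series' design text calls biological replicates. The labels put dimethyl sulfoxide, the solvent of the drug, at a final 0.1% and do not say whether the untreated cultures also received it. Each line is a single model of this cancer, so a difference between HCCC9810 and RBE is one between these lines.

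Libraries held between 15215193 and 40963529 counts. They are named by the number in their column header, which is 7 to 9 for HCCC9810 control, 10 to 12 for HCCC9810 anlotinib, 1 to 3 for RBE control and 4 to 6 for RBE anlotinib. The words control and treat in those headers set each group, and the header numbers go against the sample titles, where all 12 belong to the other treatment of the same line. If the titles' numbers were followed, each effect of anlotinib given below would change sign and the untreated lines would be treated ones. Replicates differed by more than counting error. The chi-square divided by its degrees of freedom was 3.52 for HCCC9810 control libraries 8 and 9 and 26.0 and 32.3 for the pairs with library 7. In RBE anlotinib the value was 4.83 for libraries 4 and 5 and 35.8 and 46.3 for the pairs with library 6, so libraries 6 and 7 stood apart from their groups. In HCCC9810 anlotinib the value was 12.4 for libraries 10 and 12 and 25.9 and 27.2 for the pairs with library 11, so library 11 differed from its group as well. RBE control pairs lay between 9.18 and 28.5, the highest being libraries 2 and 3. Of 7 bile duct markers, 6 in HCCC9810 and 7 in RBE reached 1 CPM (counts scaled to library size) in the group mean, the exception in HCCC9810 being the cadherin CDH1. Their summed level was 11525 to 16317 CPM in HCCC9810 control, 7058 to 7864 in HCCC9810 anlotinib, 5735 to 6465 in RBE control and 6234 to 7997 in RBE anlotinib. The 4 leukocyte markers summed to 0.538 to 2.39 CPM over the 12 libraries, and the hepatocyte list to 89.7 to 171, nearly all of it SERPINA1. Fibroblast markers summed to 60.9 to 77.0 CPM in HCCC9810 control and 23.9 to 37.8 with anlotinib. In RBE they summed to 14.8 to 17.1 in control and 15.7 to 16.9 with anlotinib. The endothelial list, mainly PECAM1 in HCCC9810, gave 29.3 to 35.1 and 30.6 to 36.1 CPM there. In RBE it gave 3.91 to 5.23 and 7.88 to 8.51, where only VWF was higher with anlotinib (0.162 to 0.466 against 3.04 to 4.77) and PECAM1 and CDH5 overlapped. Of the bile duct markers in RBE, KRT19 was higher with anlotinib (616 to 786 against 934 to 1179 CPM). CDH1 was lower there (79.7 to 86.7 against 69.6 to 73.6), and the others overlapped. The part of these markers in the RBE results was not tested.

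The promoters of 4 members are shown because they span the range of hypoxia response element cores among the 10 genes. Each window is 300 bases from RefSeq (GRCh38.p14) around an annotated start, written 5′ to 3′ on the strand of the gene. Capitals mark ACGTG or GCGTG, the core that hypoxia-inducible factors bind, read on both strands, so CACGT and CACGC are marked too. An E-box, CACGTG, holds the first of these cores on each strand, so each E-box counts as 2 cores. The window of ALDOC has 1 E-box and that of LDHA 2, while those of PGK1 and PGAM1 have 0. The larger counts of ALDOC and LDHA beside PGK1 come from these E-boxes. ALDOC has 5 cores at chr17:28576846-28577145, minus strand. PGK1 has 4 at chrX:78103998-78104297, plus strand. LDHA has 6 at chr11:18394313-18394612, plus strand. PGAM1 has 0 at chr10:97427568-97427867, plus strand.
ALDOC: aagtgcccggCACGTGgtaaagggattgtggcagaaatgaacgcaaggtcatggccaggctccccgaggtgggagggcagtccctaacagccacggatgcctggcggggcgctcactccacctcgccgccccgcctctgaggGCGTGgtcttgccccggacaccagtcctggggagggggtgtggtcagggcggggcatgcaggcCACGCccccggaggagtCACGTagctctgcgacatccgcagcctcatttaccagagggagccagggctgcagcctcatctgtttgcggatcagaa
PGK1: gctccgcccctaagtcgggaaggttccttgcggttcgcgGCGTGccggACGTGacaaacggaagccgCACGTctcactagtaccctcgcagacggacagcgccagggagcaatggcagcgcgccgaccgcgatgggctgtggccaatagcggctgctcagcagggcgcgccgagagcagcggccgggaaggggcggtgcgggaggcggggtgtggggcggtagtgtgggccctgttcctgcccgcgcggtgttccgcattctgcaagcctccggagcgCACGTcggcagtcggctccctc
LDHA: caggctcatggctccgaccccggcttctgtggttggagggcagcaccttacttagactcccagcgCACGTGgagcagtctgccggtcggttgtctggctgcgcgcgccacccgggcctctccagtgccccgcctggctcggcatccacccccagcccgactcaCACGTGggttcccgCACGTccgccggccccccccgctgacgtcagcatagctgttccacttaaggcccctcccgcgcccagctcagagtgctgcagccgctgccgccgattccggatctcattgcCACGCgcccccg
PGAM1: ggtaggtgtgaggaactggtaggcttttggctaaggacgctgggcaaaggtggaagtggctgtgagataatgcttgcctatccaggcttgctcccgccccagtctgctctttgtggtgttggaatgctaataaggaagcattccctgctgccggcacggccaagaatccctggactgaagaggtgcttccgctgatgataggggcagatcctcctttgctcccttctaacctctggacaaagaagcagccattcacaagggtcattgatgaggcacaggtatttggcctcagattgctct

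Of the members' 18 windows, 14 held a core, and 9 of 10 genes had at least 1 such window, the exception being PGAM1. The single PGAM1 window lies downstream of the GENCODE 29 start of that gene at position 97426160, on the same strand, and the bases at that start were not scanned. All windows of GPI, PFKP, ALDOC, TPI1, PGK1 and ENO1 also lie downstream of the GENCODE 29 starts of those genes. The bases at those starts were not scanned either. HK2, ALDOA and LDHA each have a window that covers the GENCODE 29 start. Of all 35116 RefSeq windows, 48.4% held ACGTG or GCGTG, 21.4% held ACGTG, 36.5% held GCGTG and 7.26% held CACGTG. The GC box GGGCGG, which was in 45% of all windows, occurred 2 times in the ALDOC window and 3 times in the PGK1 window. These letters describe the windows, and binding was not measured.

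Levels of different genes are given per length, as the deposited RPKM (reads scaled by gene length and by library depth), with the mean ± SD over 3 libraries. In untreated HCCC9810 the triose phosphate isomerase gene TPI1 stood highest at 400.1 ± 10.4, and the enolase gene ENO1 followed at 236 ± 13.3. LDHA was at 186 ± 7.03 and the phosphoglycerate kinase gene PGK1 at 172 ± 9.18, and the libraries of this pair overlapped. The mutase gene PGAM1 (107 ± 3.15), the isomerase gene GPI (59.6 ± 1.04), the phosphofructokinase gene PFKP (40.0 ± 6.87) and the hexokinase gene HK2 (21.1 ± 0.350) came next, in that order and without overlap. The aldolase genes were lowest, with ALDOA at 4.44 ± 0.498 and ALDOC at 1.13 ± 0.115.

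In untreated RBE the order began with ENO1 at 354 ± 19.3 RPKM and TPI1 at 319.8 ± 11.7. LDHA (201 ± 9.54) and PGAM1 (200.1 ± 22.9) overlapped, and PGK1 (119.8 ± 7.21), PFKP (88.0 ± 7.74), GPI (31.3 ± 3.47) and ALDOA (5.10 ± 1.34) followed without overlap. HK2 stood at 2.39 ± 0.0984 and ALDOC at 0.654 ± 0.0348. With anlotinib the ends of the orders moved. ALDOC reached 18.1 ± 1.82 RPKM in HCCC9810, above ALDOA at 6.13 ± 0.962. In RBE it reached 7.46 ± 1.33, where it overlapped ALDOA at 7.13 ± 0.699, and HK2 at 4.28 ± 0.107 became the lowest. In treated HCCC9810 PGK1 took the place after TPI1, at 311 ± 29.8 against 289 ± 26.7 for ENO1, and this pair overlapped. In treated RBE the neighbours PGAM1 (137 ± 15.1), LDHA (118 ± 10.8), PFKP (118 ± 16.5) and PGK1 (112 ± 11) overlapped along the chain.

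The level of ALDOA needs a limit. In GENCODE 29 other genes cover 53.5% of its exon bases and 93.8% of its coding bases, the main one being AC093512.2 with 42.3% of the exon bases and 28 to 128 counts a library. How reads in shared bases were counted is not given in the sources used here, and the effect on the ALDOA level was not tested. For LDHB, the other main lactate dehydrogenase gene, 0 counts were listed in 3 groups and at most 5 in a library of RBE anlotinib, so it was not tested. Other genes, mainly AC010197.2, cover 93.5% of the coding bases of LDHB, so its listed level has the same limit as that of ALDOA. Coding overlap was 10.3% for GPI, exon overlap 10.1% for ALDOC, and processed copies such as TPI1P1 (182 to 408 counts) and LDHAP4 (12 to 128 counts) took few counts.

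**Figure D1:**
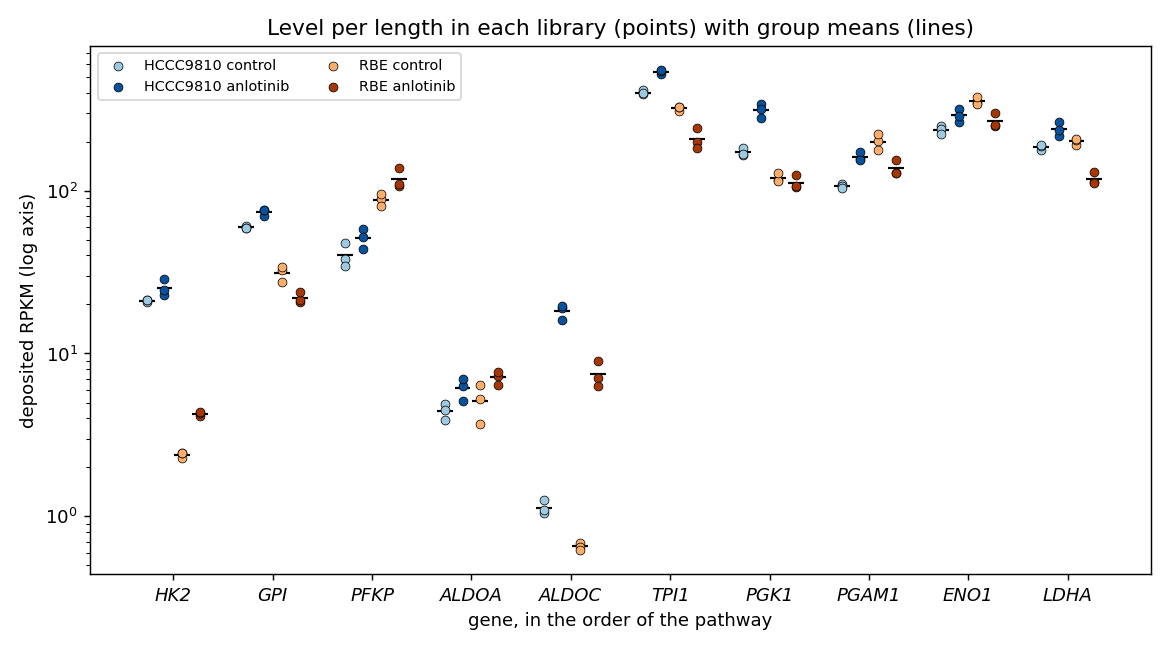
Deposited RPKM (log axis) of the 10 genes in pathway order, with 1 point for each library and lines at the group means. TPI1 and ENO1 stand highest in untreated cells of either line, HK2 is far lower in RBE than in HCCC9810, and ALDOC rises from the lowest place in both lines.

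The effect of anlotinib on these enzymes was first followed in HCCC9810. Of the 10 genes, 8 rose, 0 fell and 2 (PFKP and ENO1) did not pass the test, against a background of 11.1% of all 18035 tested genes called up and 12.8% called down (edgeR's quasi-likelihood test, Benjamini-Hochberg adjusted p below 0.05). ALDOC rose 16.9-fold, PGK1 1.90-fold and PGAM1 1.58-fold, and the other 5 calls were rises of 1.26-fold (HK2) to 1.44-fold (ALDOA). All 10 estimates were positive, so 0 fell at an unadjusted p below 0.05 too, and DESeq2 also called 0 down. In bulk RNA a change per cell and a change in the mix of cells cannot be told apart. Of the bile duct markers, the keratins KRT7, KRT19, KRT8 and KRT18 were lower with anlotinib in this line, and EPCAM, SOX9 and CDH1 overlapped. The summed fibroblast markers were lower too, with LUM, COL1A1 and COL3A1 lower and COL1A2, DCN and PDGFRB overlapping. The part of these markers in the results was not tested. The median log2 fold change was 0.46 for the 10 genes and -0.05 for all tested genes. In 9 of 10 genes each treated library lay above each control library, where 38.3% of all genes had ranges apart in either direction. The share of all counts that fell on the members was 0.568 ± 0.0148% without and 0.786 ± 0.0604% with the drug, and these ranges did not overlap. Values per library below are CPM after TMM scaling, in the order of the library numbers, and changes are log2 fold changes ± SE.

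ALDOC and ALDOA cleave fructose bisphosphate into triose phosphates. ALDOC, the form typical of brain, read 4.03, 3.08 and 3.22 CPM in control and 50.6, 58.5 and 63.9 in anlotinib libraries, and the groups lay far apart. Its log2 fold change was 4.07 ± 0.19 (adjusted p = 5.69e-09), which ranked 6 from the top among 18035 genes. ALDOA, the form typical of muscle, read 21.0, 15.4 and 17.8 CPM in control and 26.5, 29 and 22.4 with anlotinib. Its ranges came close but did not meet, and the change was 0.53 ± 0.18 (adjusted p = 0.0457). That call ended in 12 of 22 alternatives, among them library totals (0.0804), the correction for GC content and length (0.0563) and the fits that dropped control library 8 (0.184) or 9 (0.132), treated library 10 (0.0985), 11 (0.125) or 12 (0.0520), or RBE library 1 (0.0668), 4 (0.0618) or 5 (0.0588).

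In the early phase, HK2, which traps glucose as glucose phosphate, read 137, 131 and 129.6 CPM in control and 149, 184 and 168 in anlotinib libraries. The controls lay close together, below each treated library, and the change was 0.33 ± 0.10 (adjusted p = 0.0291). GPI, which converts glucose phosphate to fructose phosphate, read 708, 638 and 632 in control and 801, 859 and 913 with anlotinib. Control library 7 was the nearest to the treated group, and the change was 0.38 ± 0.12 (adjusted p = 0.0345). PFKP, the platelet form of phosphofructokinase, which commits the sugar to glycolysis, read 252, 184 and 169 in control and 227, 297 and 283 with anlotinib. Library 7 overlapped the treated range, and the change of 0.42 ± 0.17 did not pass (adjusted p = 0.0841, 95% interval 0.06 to 0.78). Without library 7 it was 0.64 (adjusted p = 0.0155), and without RBE library 6 adjusted p was 0.0492.

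TPI1, which interconverts the triose phosphates, read 1214, 1068 and 1078 CPM in control and 1506, 1557 and 1668 with anlotinib, a change of 0.49 ± 0.13 (adjusted p = 0.0149). PGK1 makes the first ATP of the pathway's later phase and read 1097, 922 and 928 in control and 1659, 1975 and 1950.0 with anlotinib. Its ranges were wide apart, and the change was 0.92 ± 0.13 (adjusted p = 0.000217). PGAM1, which moves the phosphate of phosphoglycerate, read 308, 278 and 269 in control and 432, 472 and 443 with anlotinib. It too was clear of overlap, at 0.66 ± 0.13 (adjusted p = 0.00231). ENO1, which makes phosphoenolpyruvate, read 1433, 1263 and 1185 in control and 1505, 1774 and 1688 with anlotinib. Library 7 again came nearest, and the change of 0.36 ± 0.13 missed the threshold (adjusted p = 0.0588). ENO1 was past it in 7 of 22 alternatives, among them DESeq2 (0.0374), the fit without library 7 (0.0360) and the fit without RBE library 6 (0.0275).

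LDHA, which makes lactate, read 1207, 1182 and 1198 CPM in the control libraries of HCCC9810 and 1446, 1734 and 1633 with anlotinib. All treated libraries were higher, and the change was 0.42 ± 0.12 (adjusted p = 0.0188). The calls of ALDOC, PGK1 and PGAM1 held in all 22 alternatives. Those of smaller rises were lost in some fits without 1 library, while their estimates stayed positive in all 22. Without library 8 HK2 was at 0.33, GPI at 0.37 and TPI1 at 0.47, against 0.33, 0.38 and 0.49 in the main fit. Without control library 8 or 9, LDHA had adjusted p = 0.0791 and 0.0768, TPI1 0.0730 and 0.0724, GPI 0.135 and 0.143 and HK2 0.113 and 0.121, so that 3 members were called up in either fit. Without anlotinib library 11 (4 members up) adjusted p was 0.0604 for LDHA, 0.0639 for GPI and 0.0949 for HK2. Without library 12 (3 members up) it was 0.0624 for LDHA, 0.0606 for TPI1, 0.130 for GPI and 0.0868 for HK2. Leaving out RBE control library 1, which enters through the shared spread, gave 5 members up, with GPI at 0.0628 and HK2 at 0.0519, and without RBE library 5 GPI stood at 0.0510. Without libraries 6 and 7 together, 10 of 10 members were called up.

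**Figure D2:**
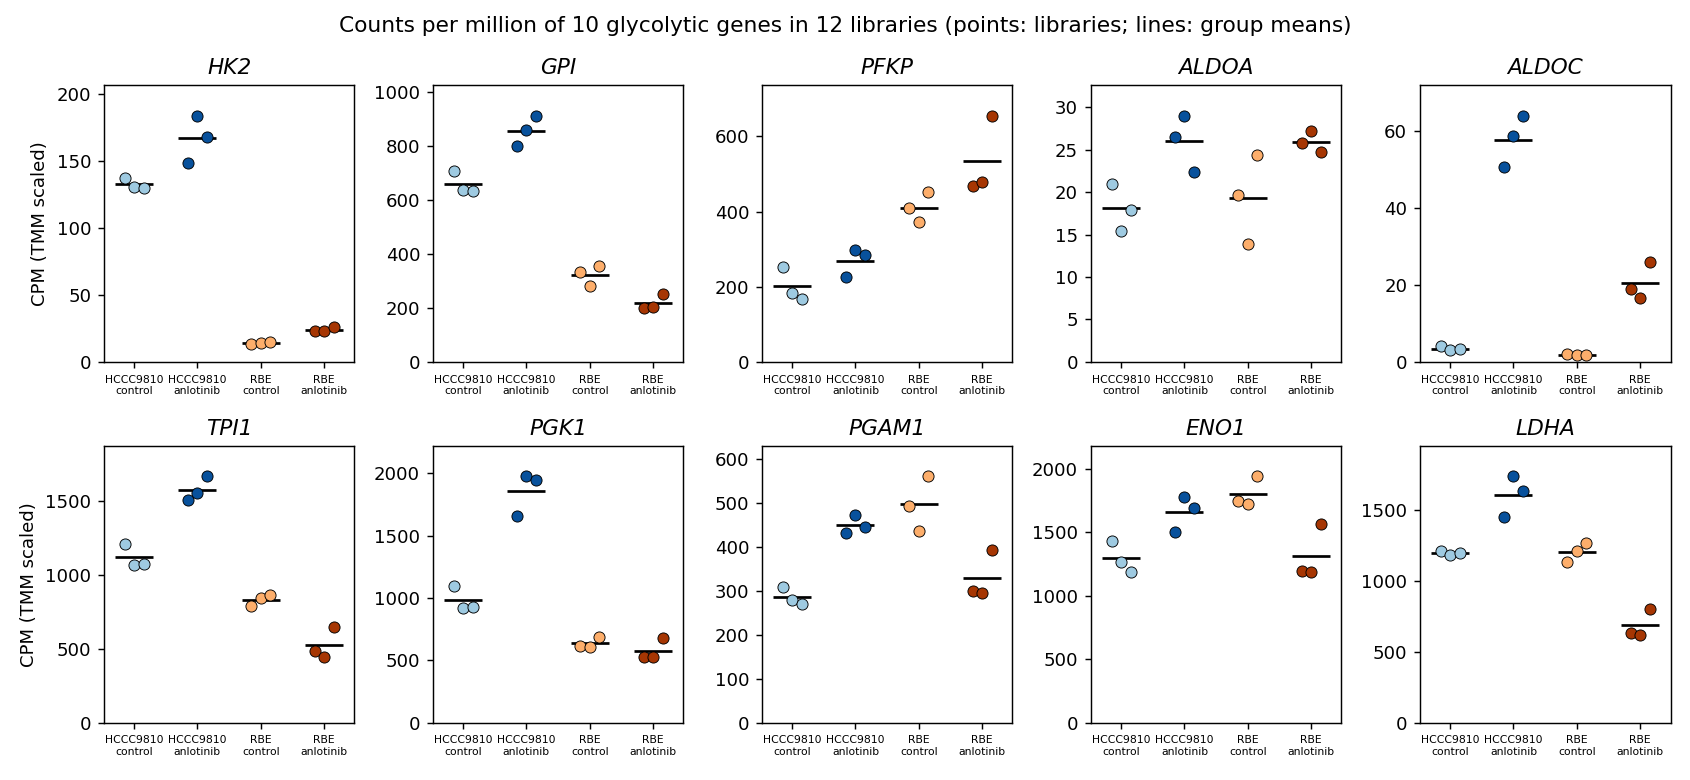
TMM-scaled CPM of each of the 10 genes in the 12 libraries (points, ordered by library number within a group) with lines at the group means; each panel has its own axis from 0. In HCCC9810 9 of 10 genes have treated libraries above all controls, and in RBE GPI, TPI1, PGAM1, ENO1 and LDHA have treated libraries below all controls.

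In RBE the same treatment gave calls in both directions. GPI, TPI1, PGAM1, ENO1 and LDHA fell, ALDOC and HK2 rose, and PFKP, ALDOA and PGK1 did not pass the test. The background was 9.37% of tested genes called up and 8.32% called down. The median log2 fold change was -0.30 for the 10 genes and 0.02 for all tested genes. Ranges were apart in 9 of 10 genes, 4 with treated libraries higher and 5 lower, where 35% of all genes had ranges apart. Their share of all counts was 0.595 ± 0.0316% without and 0.456 ± 0.0495% with the drug, again without overlap. The treated libraries share 1 feature in what follows: library 6, which stood apart over all genes, was the highest of its group in 9 of 10 members, ALDOA being the exception.

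Both rises were in genes that were low in this line. ALDOC read 1.94, 1.83 and 1.77 CPM in control and 18.8, 16.7 and 25.9 with anlotinib. That was 11-fold, or 3.46 ± 0.19 on the log2 scale (adjusted p = 3.82e-08), rank 30 from the top. HK2 read 13.2, 14.2 and 14.5 in control and 22.8, 23.4 and 26.2 with anlotinib. It rose 1.72-fold (0.79 ± 0.11, adjusted p = 0.000173), and neither group had a library near the other's range. Both calls held in all 22 alternatives.

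Among the falls, LDHA went furthest. It read 1131, 1210.2 and 1264 CPM in control and 633, 619.9 and 802 with anlotinib, a change of -0.81 ± 0.12 (adjusted p = 0.000297), and even library 6 stayed well below the controls. TPI1 read 793, 842 and 865 in control and 486, 444 and 651 with anlotinib (-0.66 ± 0.13, adjusted p = 0.0029). PGAM1 read 493, 436 and 559 in control and 299, 294 and 392 with anlotinib (-0.60 ± 0.13, adjusted p = 0.00453). In both, the treated libraries 4 and 5 lay close together and library 6 lay between them and the controls. The calls of LDHA, TPI1 and PGAM1 held in all 22 alternatives.

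GPI read 333, 281 and 355 CPM in RBE control and 201, 203 and 252 with anlotinib, a change of -0.56 ± 0.12 (adjusted p = 0.0047). Library 6 came near control library 2 but stayed under it. ENO1 read 1747, 1725 and 1939.6 in control and 1194, 1189 and 1562 with anlotinib (-0.46 ± 0.13, adjusted p = 0.0241). The smaller of these calls were lost in some fits without 1 library, while the estimates stayed negative in all 22 alternatives. That of ENO1 was -0.48 and -0.49 without library 1 or 2, and -0.37 to -0.38 without library 3, 4 or 5. Without RBE library 4, 3 members were called down, with GPI at adjusted p = 0.0517 and ENO1 at 0.162. ENO1 also ended without control library 1 (0.0823), 2 (0.0508) or 3 (0.143), without library 5 (0.161), without HCCC9810 control library 8 (0.0553) and in a fit of the RBE groups alone (0.0515).

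The remaining 3 genes of RBE were not called. PGK1 read 617, 606 and 689 CPM in control and 524, 526 and 680.0 with anlotinib, with library 6 inside the control range. Its change was -0.15 ± 0.13 (adjusted p = 0.495), with a 95% interval of -0.42 to 0.13. Without libraries 6 and 7 together it was -0.29 (adjusted p = 0.0467), which made 6 members called down. PFKP read 409, 372 and 452 in control and 469, 478 and 655 with anlotinib (0.38 ± 0.17, adjusted p = 0.14, interval 0.02 to 0.73). ALDOA read 19.6, 13.9 and 24.4 in control and 25.8, 27.2 and 24.7 with anlotinib (0.42 ± 0.18, adjusted p = 0.119). Treated libraries were higher than all controls in both, by a small margin. With the correction for GC content and length both were called up (adjusted p = 0.0399 for PFKP and 0.0294 for ALDOA), and without RBE control library 3 ALDOA was at 0.65 (adjusted p = 0.0306).

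**Figure D3:**
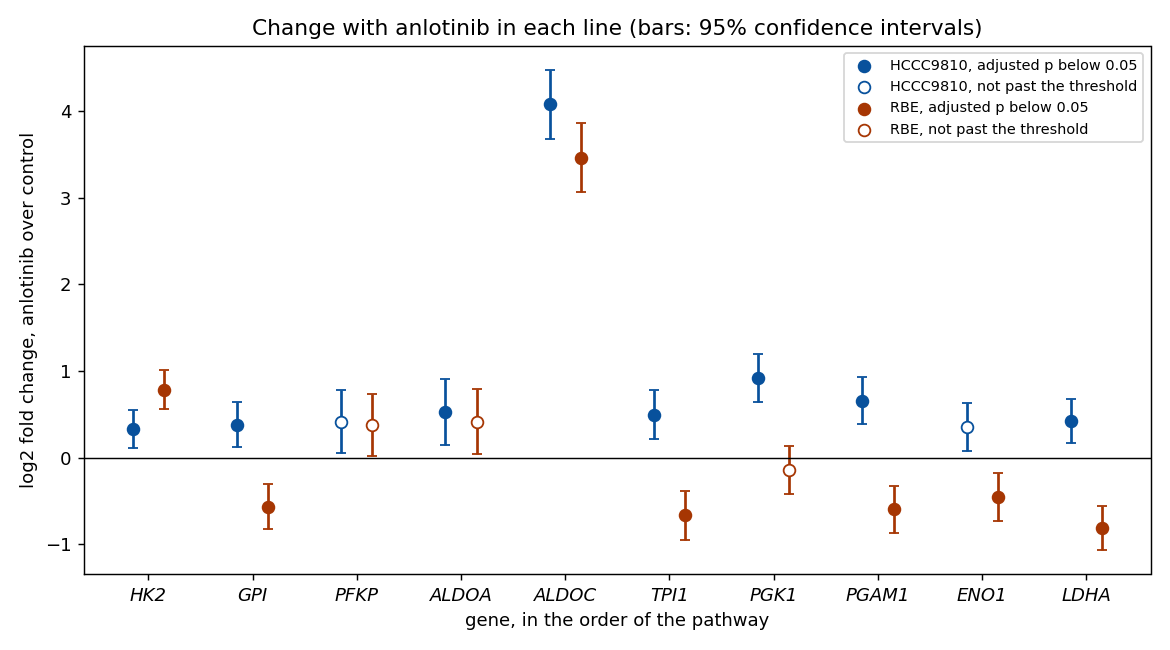
Log2 fold change of anlotinib over control for each gene in pathway order, with 95% confidence intervals from edgeR; filled points have an adjusted p below 0.05. HCCC9810 points lie above 0 for all 10 genes, while in RBE GPI, TPI1, PGAM1, ENO1 and LDHA lie below 0 and PGK1 near it.

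Whether the lines responded differently was tested directly, by subtracting the HCCC9810 effect from that in RBE. The difference was negative and past the threshold for 6 of 10 genes, GPI, TPI1, PGK1, PGAM1, ENO1 and LDHA. It was positive for 1, HK2, and not called for ALDOC, ALDOA and PFKP. In the background 16.6% of tested genes were called, 7.66% down and 8.92% up. The members' median was -0.88 and that of all genes 0.09. These 6 genes follow each other from TPI1 to LDHA, apart from the steps of GAPDH and PKM, and include GPI upstream. The differences of GAPDH and PKM were not called. Over the 21 alternatives they ranged from -0.81 to -0.35 for GAPDH, called in 4, and from -0.42 to -0.12 for PKM, called in 1.

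The largest difference was that of PGAM1 at -1.25 ± 0.18 (adjusted p = 0.000496), close to LDHA at -1.24 ± 0.17 (0.000323) and TPI1 at -1.16 ± 0.19 (0.00116). PGK1 differed by -1.07 ± 0.18 (0.00173), GPI by -0.94 ± 0.17 (0.0025) and ENO1 by -0.81 ± 0.18 (0.00917). The calls of these 6 genes held in all 21 alternatives. HK2 differed by 0.45 ± 0.15 (0.0489), and its call ended in 15 of 21 alternatives, with adjusted p up to 0.207. Those included the fits without HCCC9810 library 7 (0.103), 8 (0.121), 9 (0.113), 10 (0.161) or 12 (0.115) and without RBE library 1 (0.165), 2 (0.0950), 3 (0.0857), 4 (0.0960), 5 (0.122) or 6 (0.0940).

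For the uncalled genes the intervals bound the difference. PFKP had -0.04 ± 0.24 (95% interval -0.55 to 0.46) and ALDOA -0.11 ± 0.25 (-0.64 to 0.43). ALDOC had -0.62 ± 0.26 (-1.16 to -0.07, adjusted p = 0.111), small beside its rises of 4.07 and 3.46. Without library 6 the ALDOC difference was -0.83 (adjusted p = 0.0153) and without libraries 6 and 7 together -0.95 (0.00459). With library totals as scaling the median difference of all genes was 0.22 in place of 0.09, a shift of 0.13, and calls over all genes split 2080 up and 1085 down in place of 1608 and 1382. Relative to the median of all genes, the members' median was -0.97 with TMM scaling and -0.98 with library totals, and 9 of 10 lay below it in either case.

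Before treatment the lines already differed in most of these genes, as did 64.1% of all tested genes (31.5% higher and 32.6% lower in RBE). PFKP, PGAM1 and ENO1 were higher in RBE. HK2, GPI, ALDOC, PGK1 and TPI1 were lower, and ALDOA and LDHA were not called. Ranges were apart for these same 8 genes, where 69.1% of all genes had ranges apart. HK2 was 9.47-fold lower in RBE (-3.24 ± 0.11, adjusted p = 3.07e-12). GPI was lower by a log2 difference of -1.03 ± 0.12 (2.61e-06), ALDOC by -0.89 ± 0.20 (0.00141), PGK1 by -0.62 ± 0.13 (0.000612) and TPI1 by -0.43 ± 0.13 (0.0106). PFKP was higher by 1.03 ± 0.17 (7.69e-05), PGAM1 by 0.80 ± 0.13 (5.72e-05) and ENO1 by 0.48 ± 0.13 (0.0045).

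LDHA was not called between the untreated lines, with a log2 difference of 0.01 ± 0.12 and a 95% interval of -0.25 to 0.26. ALDOA stood at 0.10 ± 0.18 (-0.28 to 0.49). The TPI1 call ended without RBE control library 1 (adjusted p = 0.102) or 2 (0.0651) and without HCCC9810 control library 7 (0.0954). These comparisons and the effects above share their control libraries, so their values are set side by side only. PGAM1 and ENO1, higher in untreated RBE, had lower mean CPM in treated RBE than in treated HCCC9810. PGAM1 was at 329 ± 55.1 against 449 ± 20.5 CPM, without overlap, and ENO1 at 1315 ± 214 against 1656 ± 137. The ENO1 libraries overlapped, with RBE library 6 at 1562 and HCCC9810 library 10 at 1505 CPM. In RPKM both genes overlapped, PGAM1 narrowly (RBE library 6 at 154.4 and HCCC9810 library 12 at 153.9). The order of the lines in treated cells was not tested.

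Several steps can be run by more than one enzyme form, and the share of each form was taken from RPKM summed over the forms of a step. In HCCC9810 HK2 made up 45.8 ± 0.501% of hexokinase transcripts in control and 50.2 ± 2.17% in anlotinib libraries. In RBE it made up 5.34 ± 0.210% and 7.02 ± 0.241%, and HKDC1, a hexokinase described later than the other forms, held 65.7 ± 0.984% and 69.9 ± 0.846%. HKDC1 rose in both lines, by 0.68 ± 0.10 (adjusted p = 0.00037) and 0.49 ± 0.10 (0.00348). HK1, the widely expressed form, was not called (-0.31 ± 0.11, adjusted p = 0.0595, and 0.07 ± 0.11, 0.747), though it passed as a fall in HCCC9810 with library totals (0.0101) and 7 other alternatives, including the fit without RBE library 6 (0.0432).

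PFKP held 56.6 ± 2.42% of phosphofructokinase transcripts in HCCC9810 control and 56.5 ± 4.19% with anlotinib. In RBE it held 69.8 ± 0.652% and 76.8 ± 1.12%. PFKL, the liver form, rose in HCCC9810 (0.56 ± 0.15, adjusted p = 0.017) and stood at -0.45 ± 0.15 in RBE (0.0541), a difference of -1.01 ± 0.22 (0.00681). Its HCCC9810 call ended without control library 8 (0.0944) or 9 (0.0888) or anlotinib library 12 (0.0924), while in RBE it was called down without HCCC9810 library 7 (0.0352) or RBE library 6 (0.0125). PFKM, the muscle form, was at 0.15 ± 0.10 and 0.10 ± 0.10, neither called.

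ENO1 was the main enolase in all groups, and ENO2, the neuronal form, went from 4.59 ± 0.221% to 8.31 ± 0.937% of enolase transcripts in HCCC9810 and from 3.20 ± 0.0915% to 6.0 ± 0.150% in RBE. ENO2 rose by 1.28 ± 0.15 in HCCC9810 (adjusted p = 4.46e-05) and by 0.49 ± 0.15 in RBE (0.032), where leaving out any of the 6 RBE libraries ended the call (0.0526 to 0.132). PGAM1 held 97.3% to 98.8% of its step in the group means. No aldolase shares are given, because of the overlap of ALDOA.

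**Figure D4:**
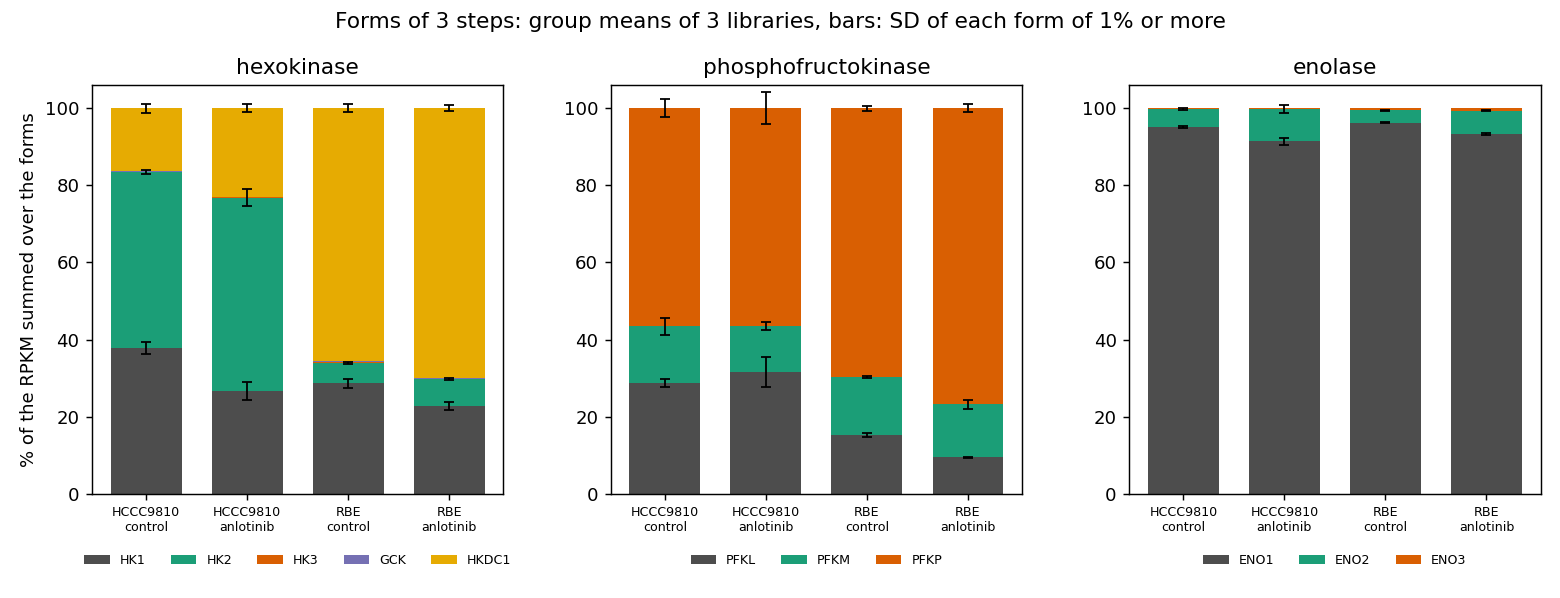
Share of each form in the RPKM summed over the forms of the hexokinase, phosphofructokinase and enolase steps, as stacked group means of 3 libraries with the SD of each form of 1% or more. HK2 and HK1 lead in HCCC9810 and HKDC1 in RBE, PFKP is the main phosphofructokinase in all groups, and the ENO2 share is larger with anlotinib in both lines.

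The counts of the lists that follow stand against the shares over all tested genes, 11.1% up and 12.8% down in HCCC9810 and 9.37% up and 8.32% down in RBE, and nothing particular to a list is read from them. Of 14 tested genes among the 23 other forms and steps, 3 rose and 0 fell in HCCC9810 (ENO2, HKDC1 and PFKL), with a median log2 fold change of 0.11. In RBE 2 rose (HKDC1 and ENO2) and 1 fell, the pyruvate kinase gene PKM at -0.42 ± 0.13 (adjusted p = 0.0321), with a median of -0.14. The PKM call ended in 10 of 22 alternatives, among them the fits without RBE library 1 (0.104), 3 (0.182), 4 (0.190) or 5 (0.190) and without HCCC9810 library 8 (0.0656), 9 (0.0635), 10 (0.0595) or 12 (0.0542). PKM stood at -0.18 ± 0.13 in HCCC9810 (0.304). GAPDH, which oxidises the triose phosphate and is often used as a reference gene, was at 0.32 ± 0.15 in HCCC9810 (0.118) and -0.19 ± 0.15 in RBE (0.406). Without libraries 6 and 7 together GAPDH was called up in HCCC9810 (0.00450) and down in RBE (0.0118), without library 6 alone it was called up in HCCC9810 (0.0496), and other genes overlap 21.5% of its coding bases.

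Transporters of glucose and lactate stand at both ends of the pathway. Of 13 tested transporters 1 rose and 1 fell in HCCC9810, and 2 rose and 0 fell in RBE. SLC2A1, the main glucose transporter of many tumours, was at -0.01 ± 0.15 (adjusted p = 0.981) and -0.20 ± 0.15 (0.418). The lactate exporter gene SLC16A3 was at 0.34 ± 0.14 (0.0846) and -0.24 ± 0.14 (0.275). SLC2A6, a hexose transporter of lysosomal membranes, rose by 1.38 ± 0.15 in HCCC9810 (1.82e-05) and 1.43 ± 0.14 in RBE (1.11e-05). SLC16A7, a monocarboxylate transporter with high affinity for pyruvate, fell in HCCC9810 (-1.27 ± 0.33, 0.0163), a call that ended without control library 8 (0.0571) or 9 (0.0704) or anlotinib library 10 (0.0534) or 12 (0.0581). In RBE it stood at 0.94 ± 0.32 (0.0611), and it was called up there without HCCC9810 library 7 (0.0287) or 10 (0.0462) or RBE library 6 (0.00588).

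Among 15 tested regulators of the pathway, 4 rose and 4 fell in HCCC9810 and 3 rose and 1 fell in RBE. The genes of the bifunctional enzymes that make and break the fructose bisphosphate activating phosphofructokinase moved in opposite directions. PFKFB4 rose by 2.04 ± 0.26 in HCCC9810 (adjusted p = 0.000114) and by 0.78 ± 0.25 in RBE (0.0416), the latter ending in 12 of 22 alternatives, including the fits without any 1 of the 6 RBE libraries (0.0593 to 0.144) and without HCCC9810 library 7 (0.0541), 8 (0.0522), 9 (0.0550) or 12 (0.0584). PFKFB3, the form with the strongest kinase activity, fell in RBE (-0.76 ± 0.11, 0.000184) and in HCCC9810 (-0.63 ± 0.11, 0.000821), and the difference of -0.13 ± 0.15 was not called (0.568, interval -0.45 to 0.19). PFKFB2 rose in RBE (0.68 ± 0.16, 0.00961), but not without RBE library 1 (0.0517), 3 (0.0521) or 5 (0.0673).

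MYC, a transcription factor that activates many of these enzymes, rose in both lines (0.93 ± 0.18, 0.00241, and 0.91 ± 0.18, 0.0027), and MLXIPL, the glucose-sensing factor ChREBP, rose in HCCC9810 (0.71 ± 0.16, 0.00463). PGM1, which links glycogen to glucose phosphate, fell in HCCC9810 (-0.42 ± 0.12, 0.0214), but not without any 1 of its 6 libraries (0.0539 to 0.0878). EPAS1, a hypoxia-inducible factor, fell there too (-0.33 ± 0.11, 0.0426), a call that ended in 14 of 22 alternatives, including the fits without any 1 of the 6 HCCC9810 libraries (0.0773 to 0.151) and without RBE library 1 (0.0956), 2 (0.0585), 3 (0.0567), 4 (0.0772) or 5 (0.0834). Its effects differed between the lines by 0.65 ± 0.15 (0.0117).

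Other pathways branch from glycolysis or follow it. Of 8 tested genes of the pentose phosphate pathway, which makes NADPH, 4 rose and 0 fell in HCCC9810 and 2 rose and 0 fell in RBE. PGD rose by 0.74 ± 0.13 (adjusted p = 0.00132) and 0.75 ± 0.13 (0.00114). RPIA rose in HCCC9810 (0.57 ± 0.15, 0.0163), except without library 8 (0.0670), 9 (0.0956) or 11 (0.0610). Leaving out library 8 gave 1 call up in this list in HCCC9810, and leaving out library 9 gave 2.

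Of 15 tested genes that carry pyruvate into the mitochondria, 4 rose and 0 fell in HCCC9810, and 2 rose and 1 fell in RBE. The carrier gene MPC1 rose in HCCC9810 (0.63 ± 0.12, adjusted p = 0.00234), as did PDK1, the kinase that shuts pyruvate dehydrogenase (0.82 ± 0.17, 0.00287), which stood at 0.40 ± 0.16 in RBE (0.0981) and was called up there without library 6 (0.0474). The phosphatase gene PDP2, whose product opens the same enzyme, rose in both lines (0.60 ± 0.12, 0.00263, and 0.59 ± 0.12, 0.00262), as did PDP1 (0.84 ± 0.18, 0.00338, and 1.07 ± 0.17, 0.000622). In the TCA cycle 4 of 20 rose and 0 fell in HCCC9810, among them IDH1 (0.87 ± 0.11, 0.000113), SDHB (0.51 ± 0.12, 0.00722) and MDH1 (0.48 ± 0.11, 0.00742). In RBE IDH1 rose (0.71 ± 0.11, 0.000538), and FH (-0.54 ± 0.12, 0.00459) and IDH2 (-0.53 ± 0.16, 0.0276) fell, IDH2 not without any 1 of RBE libraries 1 to 5 (0.0653 to 0.153).

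In the reverse direction, 1 of 6 tested genes of gluconeogenesis fell in HCCC9810 and 2 fell in RBE. FBP1, which reverses the phosphofructokinase step, had few counts and was not called (-0.85 ± 0.42, 0.146, and -0.45 ± 0.77, 0.746). SLC37A4, the glucose phosphate carrier of the endoplasmic reticulum, fell in RBE (-0.71 ± 0.13, 0.00162). Of 11 tested genes of glycogen metabolism, 2 rose and 1 fell in each line. The branching enzyme gene GBE1 rose in HCCC9810 (1.10 ± 0.11, 1.31e-05) and was at 0.12 ± 0.11 in RBE (0.516). PPP1R3B, which targets a phosphatase to glycogen, rose in RBE (1.27 ± 0.20, 0.000474). PPP1R3C, of the same family, fell in both lines (-0.59 ± 0.18, 0.0312, and -0.58 ± 0.16, 0.0195), in HCCC9810 not without library 8 (0.0931), 9 (0.107), 10 (0.0935) or 12 (0.135) or RBE library 1 (0.0517), and in RBE not without library 1 (0.0711), 2 (0.0693), 4 (0.102) or 5 (0.0654).

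Hypoxia-responsive genes outside glycolysis give a wider frame. Of 22 tested, 14 rose and 0 fell in HCCC9810, with a median of 0.54, and 6 rose and 2 fell in RBE, with a median of 0.20. In the difference of the effects 2 were called up and 9 down. CA9, a carbonic anhydrase, went from 2.86 ± 0.264 to 25.2 ± 6.20 CPM in HCCC9810 and from 0.744 ± 0.126 to 0.331 ± 0.182 in RBE, where its fall (-1.09 ± 0.36, adjusted p = 0.045) ended in 14 of 22 alternatives, among them leaving out any 1 of RBE libraries 1, 2, 3, 5 and 6 (0.0697 to 0.205) or HCCC9810 libraries 7, 8, 9 and 12 (0.0513 to 0.0610). Another gene covers 38.5% of its exon bases. BNIP3, a mitophagy receptor, was at 1.53 ± 0.17 in HCCC9810 (3.25e-05) and 0.01 ± 0.17 in RBE (0.975). NDRG1 (2.59 ± 0.22 and 0.92 ± 0.21), the peptide hormone gene ADM (1.71 ± 0.22 and 0.86 ± 0.19) and the repressor gene BHLHE40 (0.38 ± 0.09 and 0.80 ± 0.09) rose in HCCC9810 and in RBE, BHLHE40 in HCCC9810 not without library 8 (0.0534), and ANGPTL4 fell in RBE (-1.05 ± 0.20, 0.00181).

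Several of these lists had 0 calls in a direction by edgeR. In each such case of the effects of anlotinib DESeq2 also made 0 calls, and at most 3 genes had an unadjusted p below 0.05, which was the number of transporter genes lower in RBE. Some of the 22 alternatives did make calls. In RBE 9 called a pentose phosphate gene down and 4 called up to 3 transporters down. In HCCC9810 8 called another enzyme form down, 5 called up to 2 pyruvate entry genes down and 1 called a gluconeogenesis gene up.

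**Figure D5:**
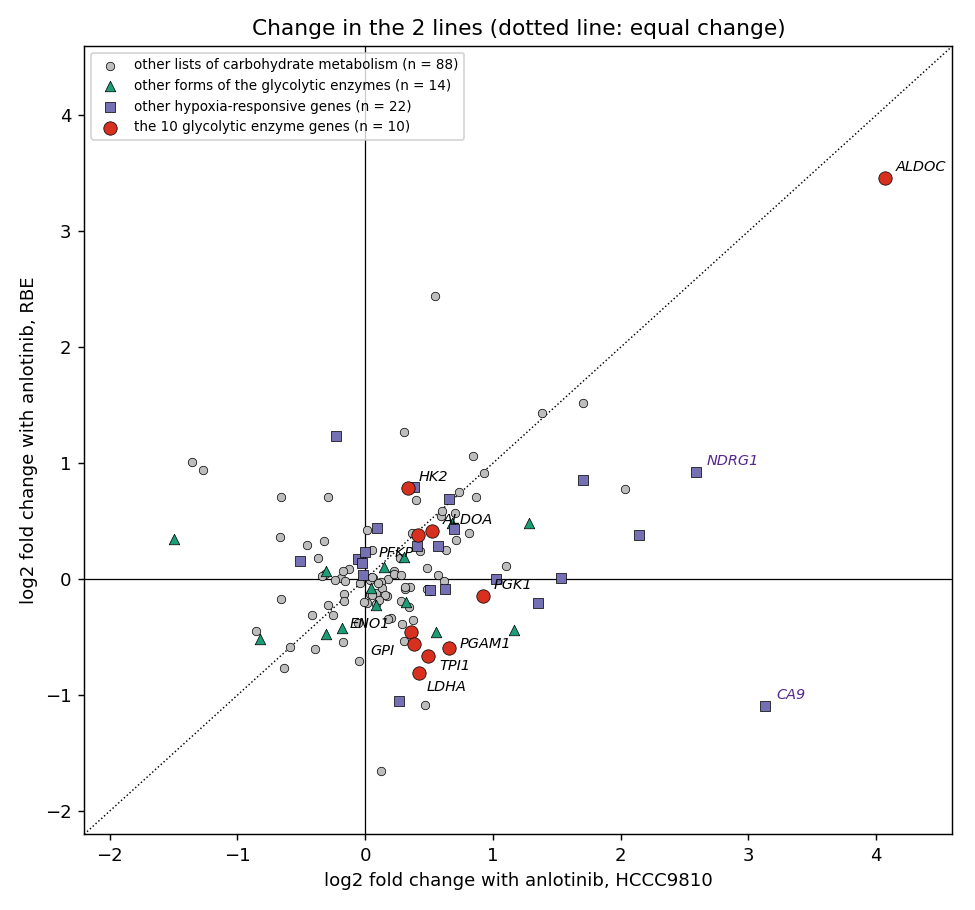
Log2 fold change with anlotinib in HCCC9810 (x axis) and in RBE (y axis) for the 10 glycolytic genes (red), other forms of the enzymes (triangles), other hypoxia-responsive genes (squares) and further genes of carbohydrate metabolism (grey); the dotted line marks equal change. ALDOC lies near the dotted line at 4.07 and 3.46, and GPI, TPI1, PGAM1, ENO1 and LDHA lie to the right of 0 and below it.

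The gene whose pattern over the 12 libraries was most like each member was sought among all tested genes, as the smallest root mean square (RMS) difference of log2 CPM after centring each gene on its own mean. For ALDOC the nearest genes were FDFT1 (RMS difference 0.53) and DHCR7 (0.72), both of cholesterol synthesis, and FCRLA (0.67), against an RMS of 1.96 for ALDOC around its own mean. The nearest to ENO1 was the spliceosome gene SNRPC (0.0693) and to LDHA the RNA export gene ALYREF (0.105). PGK1 was nearest to KIAA2013 (0.124), HK2 to CASP4 (0.151), and no member was among the 3 nearest genes of another. The closest pair of members was PGAM1 and ENO1, with an RMS difference of 0.137, against 0.351 and 0.245 around their own means. The difference is not scaled by how much a gene varies, so genes that vary little lie closer. ENO1 ranked 9 among all tested genes by likeness to PGAM1, and PGAM1 ranked 73 by likeness to ENO1. TPI1 and LDHA came next, at 0.219. The likeness is a description over 12 libraries that share line and treatment.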

How the data were processed

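Raw counts per gene were deposited by the authors in a table that also holds the authors' RPKM values for the same 12 libraries. Reads were aligned with HISAT2 to GRCh38, per the submitters' processing notes. The version, the counting tool, the annotation and the strand setting are not given in the sources used here. Columns were assigned to groups by line and by the words control and treat in their headers, because the header numbers conflict with the sample titles. The series' design text calls the replicates biological, so p-values measure the spread between them.

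The counts of all 12 libraries were fitted together in R 4.3.3 with edgeR 4.0.16 (TMM scaling, filterByExpr, quasi-likelihood F test), with a term for each of the 4 groups. P-values were adjusted by Benjamini-Hochberg over 18035 genes, and genes with an adjusted p below 0.05 were called. Adjusted p-values throughout come from this fit unless another tool is named. Intervals are 95% confidence intervals. Alternatives were DESeq2 1.42.0, limma 3.58.1 on log2 of RPKM plus 1 or 0.1, other scalings and filters, a correction for GC content and length, the 2 groups of a line alone, and leaving out each library. Leaving out libraries 6 and 7 together, and running the other lists and named genes through the alternatives, were chosen after seeing the data. The fit was also run on counts simulated from its own means and spread, with known changes put into 200 genes. Such counts follow the model of the fit, so that run cannot bear on libraries that stand apart. Depth was 15215193 to 40963529 counts.

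All members are named. For other lists up to 3 called genes per direction and line are named, by smallest p and only where the larger group mean reached 5 CPM, and GAPDH, PKM, SLC2A1, SLC16A3, PFKFB3, PFKFB4, PDK1, FBP1, LDHB, HK1, PFKL, PFKM and ENO2 are given in any case. Some genes that this rule would name are not reported here. For each member the 3 nearest genes were sought. The members and lists were chosen with earlier results of these data known. Protein sequences were not analysed here. Promoter windows came from RefSeq, and gene overlaps from GENCODE 29.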

Additional observations from a re-analysis of the deposited data

Results flagged for a closer look

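The effects of anlotinib differed between the lines by a direct test for 7 of the 10 glycolytic enzymes and 16 other named genes. This was RBE minus HCCC9810 on the log2 scale, by the quasi-likelihood test of edgeR with p-values adjusted over all tested genes. It called 16.6% of all 18035 tested genes, 7.66% down and 8.92% up. Many of the other genes were named because they were called in a line, so their number is not a share of a fixed list. Among the enzymes the difference was 0.45 for HK2, -0.94 for GPI, -1.16 for TPI1, -1.07 for PGK1, -1.25 for PGAM1, -0.81 for ENO1 and -1.24 for LDHA, and the HK2 call ended in 15 of 21 alternatives. Of the other genes, the calls of 7 held in all 21 alternatives. These were -1.01 for PFKL, 0.65 for EPAS1, 2.21 for SLC16A7, -0.99 for GBE1, -4.23 for CA9, -1.67 for NDRG1 and -1.52 for BNIP3.

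The other 9 calls were lost when single libraries were left out, with the adjusted p of each such fit in parentheses. ENO2 differed by -0.79, a call that ended without library 3 (0.0625), 4 (0.0687), 5 (0.0685), 8 (0.0678), 9 (0.0677) or 12 (0.0619). PFKFB4 differed by -1.26, but not without library 1 (0.0646), 3 (0.0855), 4 (0.0766), 5 (0.0814), 8 (0.0816) or 9 (0.0511). The difference of SLC37A4, -0.66, was lost without library 1 (0.0706), 3 (0.0776), 4 (0.0878), 8 (0.0600), 9 (0.0667), 10 (0.0643) or 12 (0.0642), and that of PPP1R3B, 0.97, without library 1 (0.0709), 2 (0.0557), 4 (0.0568), 5 (0.0752), 8 (0.0601), 9 (0.0839), 10 (0.0520) or 12 (0.0711). Among TCA cycle genes IDH2 had -0.83, lost without library 3 (0.0517), 4 (0.0640), 5 (0.0675), 8 (0.0543), 9 (0.0642) or 12 (0.0625). MDH1 had -0.57, lost without library 2 (0.0535), 3 (0.0513), 4 (0.0722), 5 (0.0884), 8 (0.0760), 9 (0.0684) or 12 (0.0743). SDHB had -0.61, lost without library 1 (0.0599), 3 (0.0813), 4 (0.0759), 5 (0.0924), 8 (0.0700), 9 (0.0767) or 10 (0.0614). ANGPTL4 had -1.32, lost without library 1 (0.0589), 3 (0.0557), 4 (0.0606), 5 (0.0625), 8 (0.0525) or 10 (0.0780). BHLHE40 had 0.42, lost in 13 of 21 alternatives, including the fits without library 1 (0.155), 2 (0.0980), 3 (0.0561), 4 (0.103), 5 (0.115), 6 (0.0788), 7 (0.0792), 8 (0.111), 9 (0.131), 10 (0.123) or 12 (0.134).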

How the results depend on the processing

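No paired analysis was possible because the groups share no replicate numbers. No value changed sign with a call under the alternatives run. The rise of HK2 in RBE relative to HCCC9810 was the only positive difference among the members, and 0 members were called up in the difference with DESeq size factors in edgeR, with no low-count filter, with DESeq2 and without libraries 6 and 7 together. With the GC content and length correction 4 members were called up in RBE and 2374 genes down. Without libraries 6 and 7 together 3097 genes were called up in HCCC9810, 2495 down in RBE, and 3172 up and 3241 down in the difference. Leaving out 1 library at a time, members called up in HCCC9810 ranged from 3 to 10, with 1113 to 2421 genes up and 1292 to 2622 down. In RBE 2 to 3 members were up and 3 to 5 down, with 1056 to 1891 genes up and 745 to 1859 down. In the difference 0 to 1 members were up and 6 to 7 down, with 836 to 2467 genes up and 627 to 2398 down. Between untreated lines 3 members were up and 4 to 5 down in each such fit. Counts over all genes moved by over 1.5 times without HCCC9810 library 8, 9 or 12 and without RBE library 1, 3, 4, 5 or 6, and the lowest in the difference were those without library 5 (836 up) and 4 (627 down), the highest those without library 6. For single genes and lists, 4169 values kept their call or size, 230 lost a call, 100 gained one and 266 counts moved by over 1.5 times. The cause was not tested. Genes with few counts could not be compared, LDHB among them, whose coding bases are nearly all shared with another gene.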
